A study of Mus musculus with 12 samples.

Results

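Transcripts for 10 G protein-coupled receptors that sense lipids were measured in Th9 cells treated with a fungal cyclic peptide, with an inhibitor of lipid synthesis, or with both. The genes were *Gpr55*, *S1pr1*, *S1pr4*, *Gpr183*, *Gpr132*, *Gpr174*, *P2ry10*, *Lpar6*, *Ptger2*, and *Ptger4*, which are 10 of the 32051 genes measured. The list was drawn up by gene family and was also chosen by measured values, namely that *Gpr55* was lower with fatostatin than with DMSO. For that reason the comparison of fatostatin with DMSO is given as a description without a test, and so are all other comparisons of *Gpr55* that use fatostatin libraries. Naive CD4+ T cells from spleens of C57BL/6J mice aged 6 to 8 weeks were polarized with IL-4 (10 ng/mL) and TGF-β (1 ng/mL) while antibodies blocked IL-12 and IFN-γ, and RNA was taken on day 4. All 12 cultures received this regimen. Control Th9 cells received DMSO, the vehicle. EpA-Th9 cells received 10 μM EpA (endomelipeptide A, a cyclic peptide from an endophytic fungus), another group received 5 μM fatostatin (an inhibitor of SREBP1, a transcription factor of lipid synthesis), and the last group received both compounds. Each group had 3 libraries. The labels number them without saying whether they came from separate mice or cultures, so p-values measure only the spread between these libraries. In bulk RNA, fewer cells of a type and less RNA per cell cannot be told apart.

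T cells read lipids in their surroundings through G protein-coupled receptors. Sphingosine 1-phosphate guides lymphocytes out of lymphoid organs through S1pr1, oxysterols position cells within them through Gpr183, and lysophospholipids such as lysophosphatidylserine, lysophosphatidylinositol, and lysophosphatidic acid act through further members of the family. Prostaglandin E2 signals through Ptger2 and Ptger4, which couple to the stimulatory G protein and raise cyclic AMP.

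The 3 receptors with the largest changes past the test in EpA-Th9 cells were *Gpr55*, *Ptger4*, and *Gpr174*, and the 250 bases before their start sites are shown because their base composition differed. The sequences are from RefSeq (GRCm38.p6), read 5′ to 3′ on the gene's strand, at chr1:85961056-85961305 (minus strand), chr15:5244188-5244437 (minus strand), and chrX:107284096-107284345 (plus strand), with matches to the motifs searched in capitals.
Gpr55: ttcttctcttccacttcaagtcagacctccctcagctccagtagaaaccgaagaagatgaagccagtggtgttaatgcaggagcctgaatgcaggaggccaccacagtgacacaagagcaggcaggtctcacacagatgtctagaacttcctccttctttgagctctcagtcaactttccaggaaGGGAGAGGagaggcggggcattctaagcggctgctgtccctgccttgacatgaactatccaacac
Ptger4: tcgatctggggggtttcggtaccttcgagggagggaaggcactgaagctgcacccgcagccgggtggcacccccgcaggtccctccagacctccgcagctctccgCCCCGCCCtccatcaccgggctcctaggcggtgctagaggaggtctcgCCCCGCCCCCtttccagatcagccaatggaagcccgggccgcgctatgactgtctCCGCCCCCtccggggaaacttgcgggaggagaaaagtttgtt
Gpr174: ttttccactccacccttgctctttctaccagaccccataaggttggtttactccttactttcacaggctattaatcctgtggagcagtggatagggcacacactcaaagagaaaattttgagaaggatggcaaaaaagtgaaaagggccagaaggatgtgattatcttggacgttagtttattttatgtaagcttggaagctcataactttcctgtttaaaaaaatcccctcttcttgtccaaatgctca
The share of G and C was 52.0% for *Gpr55*, 66.8% for *Ptger4*, and 40.4% for *Gpr174*, against a median of 52.4% over all 32817 windows of the table. The RefSeq start of *Gpr174* lies inside the gene as GENCODE draws it (chrX:107255878-107296769). A window was found for 9 of the 10 genes and not for *S1pr1*, and *P2ry10* had 2. Both strands were searched for 5 motifs. The sterol regulatory element TCACNCCAC, which SREBP proteins can bind, was in none of the 10 windows and in 1.05% of all windows. The E-box CACGTG (6.02% of all windows) and the cyclic AMP response element TGACGTCA (1.55%) were also in none. The box CCNCNCCC, bound by KLF and Sp factors, matched once upstream of *Gpr55*, at positions -65 to -58 from the start, once upstream of *Gpr132*, and 4 times upstream of *Ptger4*, where 2 of the matches overlap. This short motif was in 45.9% of all windows. The AP-1 site TGANTCA (6.75%) matched once, upstream of *P2ry10*. These are matches of letters, and they say nothing about binding in these cells.

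The library sizes recovered from the FPKM values were about 36607308 to 44375796 reads, at which 1 read on a gene of 1 kb was worth 0.0225 to 0.0273 FPKM (counts scaled by gene length and library size, the unit of all levels given here). No pair of replicates agreed within sampling noise. *Il9*, the cytokine that defines Th9 cells, stood at 54.6 ± 3.38 FPKM with DMSO and 640.0 ± 17.5 FPKM with EpA (SD, n = 3 each), and every library with EpA was above every library without it. The T cell genes *Cd3e* (39.9 to 54.2 FPKM) and *Cd4* (78.1 to 92.2 FPKM) were high in all 12 libraries, but T cell genes moved with EpA. All 8 tested T cell and Th9 markers changed against DMSO, with 3 higher (*Il9*, *Batf*, and *Cd4*) and 5 lower. *Trbc2* fell from 469.0 to 341.8 FPKM, *Cd28* from 37.3 to 25.7 FPKM, *Cd3d* from 135.0 to 114.3 FPKM, *Cd3e* from 53.3 to 42.3 FPKM, and *Irf4* from 156.2 to 143.4 FPKM. With fatostatin present, EpA raised 3 and lowered 4 of the 8. These markers were named after their values were seen. Differences are given as log2 fold changes of FPKM + 0.1 with limma's standard error (SE), which understates the change of genes expressed at low levels. A gene was called changed when limma's Benjamini-Hochberg adjusted p over all 13733 genes tested, those that averaged 0.1 FPKM or more, was below 0.05.

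All 10 receptors passed the filter on low values. In control Th9 cells their levels spanned from 120.9 FPKM for *P2ry10* to 0.813 FPKM for *Lpar6*. Averaged over the 12 libraries, *P2ry10* exceeded the mean of 97.6% of the genes tested and *Lpar6* that of 19.2%. The order between them in control cells was *Gpr132* (38.0 FPKM), *S1pr1* (24.3), *Gpr174* (23.0), *S1pr4* (17.1), *Ptger4* (9.64), *Gpr55* (5.13), *Ptger2* (2.22), and *Gpr183* (1.08). Among neighbors in this order, only *S1pr1* and *Gpr174* overlapped in their ranges over the 3 control libraries.

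**Figure D1:**
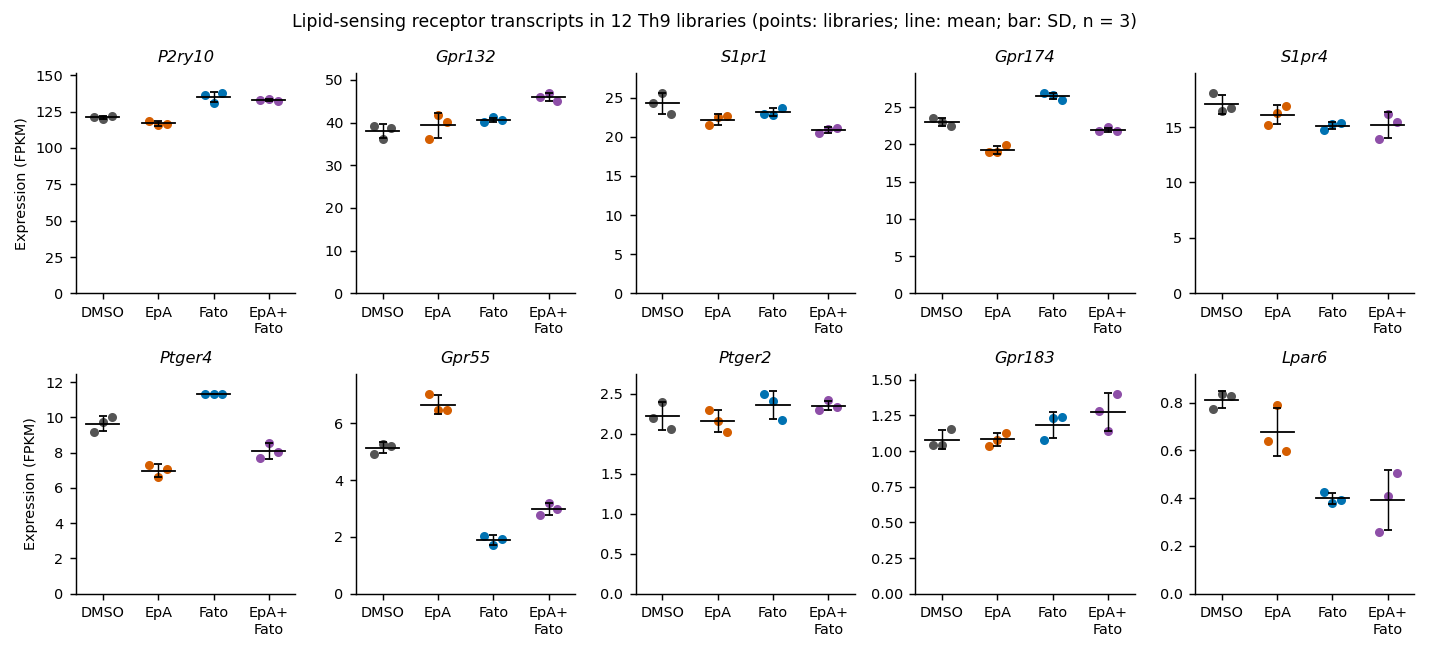
Expression of the 10 receptors in FPKM (vertical axes from 0, 1 panel per gene in order of level) in the DMSO, EpA, fatostatin (Fato), and EpA+Fato groups. Points are libraries, lines are means, and bars are SD of n = 3. *Gpr55* stood between 6.47 and 7.05 FPKM with EpA and between 1.71 and 2.03 FPKM with fatostatin, whereas *S1pr4* and *Ptger2* stayed within narrow ranges.

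EpA changed 4 of the 10 receptors relative to DMSO. *Gpr55* rose, and *S1pr1*, *Gpr174*, and *Ptger4* fell. The rule that chose *Gpr55* also used its DMSO values, and among the other 9 receptors EpA changed 3, all lower. In the same libraries 5 of the 8 T cell and Th9 markers fell and 3 rose, with log2 changes from -0.53 for *Cd28* to 3.55 for *Il9* and a median of -0.18, and their part in the receptors' changes was not tested. The count of 4 of 10, or 3 of 9 without *Gpr55*, stands against a background of 27.4% of all genes tested (14.3% higher and 13.1% lower). None of the 10 reached a fold change of 1.5 by limma, as 3.38% of all genes did. Their median log2 fold change was -0.07, against 0.0023 over all genes. The values of the 3 EpA and the 3 DMSO libraries did not overlap for 5 of the 10 receptors (*Gpr55* higher, 4 lower), against 42.4% of all genes (21.7% higher and 20.8% lower). In the presence of fatostatin, EpA changed 4 of the 9 receptors other than *Gpr55*: *Gpr132* rose, and *S1pr1*, *Gpr174*, and *Ptger4* fell. The means compared came from other libraries than before, but both comparisons took their spread from 1 fit of all 12 libraries. The background with fatostatin present was 29.5% of all genes (16.2% higher and 13.3% lower). With *Gpr55* included, whose fatostatin values the rule used, the median of the 10 was -0.01 against 0.01 over all genes. Then 5 receptors did not overlap (*Gpr55* and *Gpr132* higher, 3 lower), against 41.4% of all genes (22.5% higher and 19% lower). None of the 9 reached 1.5-fold in that comparison, as 3.75% of all genes did.

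Fatostatin was compared with DMSO as a description only. The 3 values of each group did not overlap for 7 of the 10 receptors, against 31.3% of all genes (16.5% higher and 14.8% lower), and nothing is read from this count since the rule used the contrast. *Gpr132*, *Gpr174*, *P2ry10*, and *Ptger4* were higher and *Gpr55*, *S1pr4*, and *Lpar6* were lower. In EpA-Th9 cells, 9 receptors could be tested for the effect of fatostatin. It changed 5 of these 9, with *Gpr132*, *Gpr174*, *P2ry10*, and *Ptger4* higher and *Lpar6* lower, against a background of 16% of all genes (9.22% higher and 6.79% lower). Their median log2 fold change was 0.19, against 0.01 over all genes, and 8 of the 9 did not overlap (6 higher, 2 lower), against 33.3% of all genes (18.9% higher and 14.4% lower). Only *Lpar6* changed by at least 1.5-fold, as 1.99% of all genes did. In the same comparison 3 of the 8 tested T cell and Th9 markers rose and 2 fell, and their part in the receptors' changes was not tested. The comparisons with DMSO share the DMSO libraries, and those with EpA alone share the EpA libraries.

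**Figure D2:**
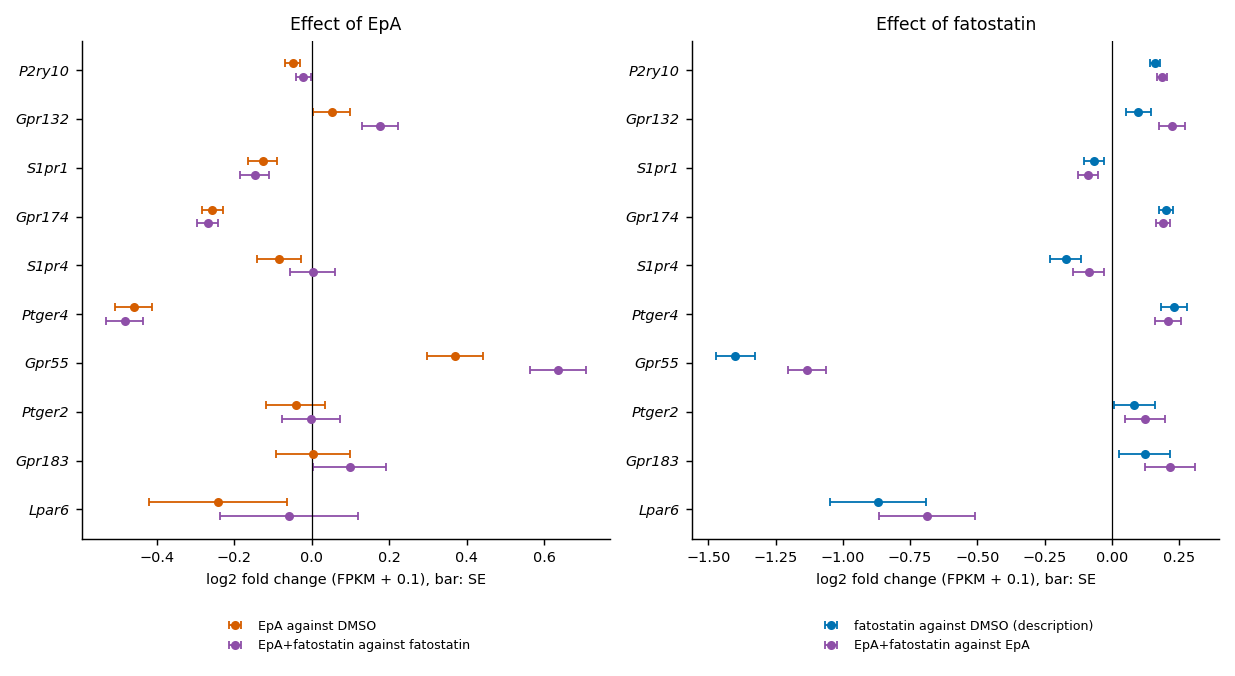
log2 fold changes of FPKM + 0.1 (horizontal axes, points) with SE (bars) for the 10 receptors, for EpA without and with fatostatin (left) and for fatostatin without and with EpA (right). *Gpr55* lay at 0.37 and 0.63 on the left and at -1.40 and -1.13 on the right, and *Ptger4* lay at -0.46 and -0.48 on the left and at 0.23 and 0.21 on the right.

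*Gpr55* encodes a receptor for lysophosphatidylinositol (chr1:85938318-85961007, minus strand). It had 4.91, 5.28, and 5.21 FPKM in the DMSO libraries, 7.05, 6.47, and 6.47 FPKM with EpA, 2.03, 1.71, and 1.92 FPKM with fatostatin, and 2.76, 3.21, and 2.99 FPKM with both, from 254 to 1043 reads per library. The 4 groups did not overlap, and EpA was highest and fatostatin lowest. EpA raised *Gpr55* by 0.37 (SE 0.0723, limma adjusted p = 0.00289) relative to DMSO, whose libraries the rule also used. With fatostatin present the value was 0.63 (SE 0.0723), or 1.55-fold, given without a test because the low fatostatin values chose the gene. The difference between these effects was 0.27 (SE 0.102) and was not tested, since it is also a difference of fatostatin effects. As a description, the log2 change with fatostatin was -1.40 without EpA and -1.13 with it (SE 0.0723 each). The change with EpA in fatostatin-treated cells was under 1.5-fold without fatostatin replicate 2 (0.57) or without EpA+fatostatin replicate 2 (0.57). *4933407L21Rik* on the opposite strand shares 71 exonic bases with *Gpr55* and had 0.0295 to 0.139 FPKM.

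The lysophosphatidylserine receptors *Gpr174* and *P2ry10* lie on the X chromosome with *P2ry10b* between them. *Gpr174* had 23.6, 23.1, and 22.5 FPKM in control Th9 cells, 19.0, 18.9, and 19.9 FPKM with EpA, 26.9, 26.6, and 26.0 FPKM with fatostatin, and 21.8, 22.3, and 21.8 FPKM with both. All 4 groups were separate. EpA lowered *Gpr174* by a log2 change of -0.26 (SE 0.0269, limma adjusted p = 3.51e-05) without fatostatin and -0.27 (SE 0.0269, limma adjusted p = 2.20e-05) with it. Fatostatin raised it by 0.19 (SE 0.0269, limma adjusted p = 0.000659) in EpA-Th9 cells, and the value against DMSO was 0.20. *P2ry10*, the most abundant of the 10 transcripts, had 121, 120, and 122 FPKM in control cells, 118, 116, and 116 FPKM with EpA, 136, 131, and 138 FPKM with fatostatin, and 133, 133, and 132 FPKM with both. It was thus higher in every library with fatostatin than in every library without it. Fatostatin raised it by 0.19 (SE 0.0192, limma adjusted p = 5.63e-05) in EpA-Th9 cells, and the value against DMSO was 0.16. EpA moved it by -0.05 (SE 0.0192, limma adjusted p = 0.0773) against DMSO, although the groups did not overlap, and this call was gained without fatostatin replicate 2 (adjusted p = 0.0347). With fatostatin present, the change was -0.02 (95% confidence interval -0.06 to 0.02, limma adjusted p = 0.430).

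*S1pr1* and *S1pr4* encode receptors for sphingosine 1-phosphate. *S1pr1* had 24.3, 25.6, and 22.9 FPKM with DMSO, 21.4, 22.5, and 22.7 FPKM with EpA, 22.9, 22.8, and 23.7 FPKM with fatostatin, and 20.5, 21.1, and 21.1 FPKM with both. Every EpA library was below every library of its own control, although the lowest DMSO library lay near the highest EpA library. EpA lowered *S1pr1* by a log2 change of -0.13 (SE 0.0374, limma adjusted p = 0.0265) without fatostatin and -0.15 (SE 0.0374, limma adjusted p = 0.0116) with it. The first of these calls was lost without DMSO replicate 1 (adjusted p = 0.0673), DMSO replicate 2 (0.0987), or EpA replicate 1 (0.102), when only the groups compared were fitted (0.0765), and without the intensity trend (0.0502). Its adjusted p ran from 0.00585 to 0.102 over 22 alternatives, whereas the second held in all 22. Fatostatin moved *S1pr1* by -0.09 (limma adjusted p = 0.141) in EpA-Th9 cells. *S1pr4* had 18.0, 16.5, and 16.7 FPKM with DMSO, 15.2, 16.2, and 16.9 FPKM with EpA, 14.7, 15.3, and 15.3 FPKM with fatostatin, and 13.9, 16.2, and 15.5 FPKM with both. No test of *S1pr4* passed, with a change with EpA of -0.08 (95% confidence interval -0.21 to 0.04, limma adjusted p = 0.320) without fatostatin and 0.0018 (95% confidence interval -0.12 to 0.13, limma adjusted p = 0.990) with it.

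*Lpar6*, a receptor for lysophosphatidic acid, was the least abundant of the 10 (59 to 194 reads per library). It had 0.774, 0.838, and 0.826 FPKM with DMSO, 0.638, 0.790, and 0.599 FPKM with EpA, 0.426, 0.381, and 0.393 FPKM with fatostatin, and 0.257, 0.410, and 0.506 FPKM with both. All 6 libraries with fatostatin were below all 6 without it. In EpA-Th9 cells, fatostatin lowered *Lpar6* by a log2 change of -0.69 (SE 0.178, limma adjusted p = 0.0226), and the value against DMSO was -0.87 (SE 0.178). The call was lost without EpA replicate 2 (adjusted p = 0.0867), without EpA+fatostatin replicate 1 (0.0582), and when only the EpA and EpA+fatostatin groups were fitted (0.101). EpA moved *Lpar6* by -0.24 (95% confidence interval -0.63 to 0.15, limma adjusted p = 0.361), an interval that includes a fall of 1.5-fold. *Lpar6* lies within *Rb1*, which is on the opposite strand, shares 408 exonic bases with it, and had 26.2 to 28.7 FPKM, and reads of overlapping genes cannot be told apart unless counting used strand.

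*Gpr132* encodes a receptor linked to lysophospholipids, oxidized fatty acids, and protons. It had 39.1, 36.1, and 38.8 FPKM with DMSO, 36.2, 41.9, and 40.2 FPKM with EpA, 40.2, 41.2, and 40.6 FPKM with fatostatin, and 45.9, 46.8, and 45.1 FPKM with both. The cells given both compounds were above all 9 other libraries. Both compounds together exceeded EpA alone by 0.22 (SE 0.0473, limma adjusted p = 0.00779) and fatostatin alone by 0.18 (SE 0.0473, limma adjusted p = 0.0158, or 0.0553 without EpA+fatostatin replicate 2). EpA alone moved *Gpr132* by 0.05 (95% confidence interval -0.05 to 0.15, limma adjusted p = 0.483). Between cells with and without fatostatin, its response to EpA differed by 0.13 (SE 0.0669, limma adjusted p = 0.722), which did not pass. *Gpr183*, the oxysterol receptor, had 1.04, 1.04, and 1.16 FPKM with DMSO, 1.04, 1.08, and 1.13 FPKM with EpA, 1.08, 1.23, and 1.24 FPKM with fatostatin, and 1.28, 1.14, and 1.40 FPKM with both. These values rest on 110 to 166 reads, the groups overlapped in every comparison except both compounds against EpA, and no test passed (fatostatin in EpA-Th9 cells 0.22, SE 0.0946, limma adjusted p = 0.158). *Gpr183* lies within *Ubac2* on the opposite strand (21.2 to 23.4 FPKM), with 0 exonic bases shared.

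Of the prostaglandin E2 receptors, *Ptger4* changed in both EpA comparisons and with fatostatin in EpA-Th9 cells, and *Ptger2* in none of these. *Ptger4* had 9.19, 9.73, and 10.0 FPKM with DMSO, 7.28, 6.59, and 7.08 FPKM with EpA, 11.3, 11.4, and 11.3 FPKM with fatostatin, and 7.67, 8.53, and 8.06 FPKM with both. The 4 groups were separate, with fatostatin highest and EpA lowest, where *Gpr55* had EpA highest and fatostatin lowest. EpA lowered *Ptger4* by a log2 change of -0.46 (SE 0.0479, limma adjusted p = 3.44e-05) without fatostatin and -0.48 (SE 0.0479, limma adjusted p = 2.10e-05) with it. Fatostatin raised it by 0.21 (SE 0.0479, limma adjusted p = 0.0119, or 0.0569 when only the groups compared were fitted) in EpA-Th9 cells, and the value against DMSO was 0.23. *Ptger4* shares 82 exonic bases with *Ttc33* (9.97 to 13.0 FPKM) and 1015 with the pseudogene *Gm15937*, both on the opposite strand. *Ptger2* had 2.20, 2.40, and 2.06 FPKM with DMSO, 2.29, 2.15, and 2.01 FPKM with EpA, 2.50, 2.41, and 2.16 FPKM with fatostatin, and 2.30, 2.41, and 2.34 FPKM with both. Its groups overlapped in every comparison except both compounds against EpA, and no test passed. The change with EpA was -0.04 (95% confidence interval -0.21 to 0.13, limma adjusted p = 0.741) without fatostatin and -0.0022 (95% confidence interval -0.17 to 0.16, limma adjusted p = 0.990) with it. *Ptger2* overlaps the antisense gene *Gm17173* over 246 exonic bases.

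None of the 9 receptors passed the test for an effect of EpA that differed between cells with and without fatostatin. The 95% confidence interval of *Lpar6* (-0.37 to 0.74) includes a difference of 1.5-fold, and that of *Gpr183* was -0.20 to 0.39. The differences ran from -0.02 to 0.18 on the log2 scale with limma adjusted p from 0.722 to 0.980, 0 of the 9 had an unadjusted p below 0.05, and voom on recovered reads also called 0. The background was 0.0437% of all genes tested.

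A further 41 receptors for lipids or protons were listed by family. Of these, 18 passed the filter on low values and 15 averaged 0.5 FPKM or more, while 8 had 3 reads or fewer in every library and 4 had none. Abundant ones were the proton sensor *Gpr65* (27.7 FPKM), the cysteinyl leukotriene receptor *Cysltr2* (10.9), the prostacyclin receptor *Ptgir* (9.53), and *P2ry10b* (7.70). EpA raised 5 and lowered 6 of the 18 against DMSO (27.4% of all genes changed). With fatostatin present it raised 5 and lowered 5 (29.5% of all genes). Fatostatin raised 2 and lowered 2 against DMSO (14% of all genes, 7.69% higher and 6.31% lower) and raised 3 and lowered 2 in EpA-Th9 cells (16% of all genes), and no receptor of the 18 passed the test of the difference between EpA effects.

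The sphingosine 1-phosphate receptors *S1pr3* and *S1pr2* rose with EpA, where *S1pr1* fell. *S1pr3* had 0.916 ± 0.102 FPKM (SD, n = 3) with DMSO and 1.90 ± 0.196 FPKM (SD, n = 3) with EpA, and it rose by 0.98 (SE 0.115, limma adjusted p = 8.84e-05) without fatostatin and 1.41 (SE 0.115, limma adjusted p = 4.75e-06) with it. *S1pr2* rose by 0.46 (limma adjusted p = 0.00737) with fatostatin present. Its rise of 0.38 against DMSO (limma adjusted p = 0.0214) was lost without DMSO replicate 2 (adjusted p = 0.0779), EpA replicate 1 (0.0556), or EpA replicate 3 (0.0738), and when only the groups compared were fitted (0.0525). *Cysltr1*, a cysteinyl leukotriene receptor, was highest with EpA and lowest with fatostatin, as *Gpr55* was, from 8.48 ± 0.364 FPKM (SD, n = 3) with EpA to 4.59 ± 0.261 FPKM (SD, n = 3) with fatostatin. EpA raised it by 0.58 (SE 0.0509, limma adjusted p = 9.69e-06) and fatostatin lowered it by a log2 change of -0.30 (SE 0.0509, limma adjusted p = 0.00247), and in the presence of the other compound the values were 0.61 and -0.26. The leukotriene B4 receptor *Ltb4r1* rose by 0.79 (SE 0.157, limma adjusted p = 0.00304) with EpA, from 0.576 to 1.07 FPKM (19 to 64 reads per library).

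The prostanoid receptors *Ptgir* and *Tbxa2r* fell with EpA, as *Ptger4* did. *Ptgir* changed by -0.42 (SE 0.0467, limma adjusted p = 6.04e-05) and *Tbxa2r*, the thromboxane receptor, by -0.33 (SE 0.0529, limma adjusted p = 0.000823). *Tbxa2r* also rose with fatostatin by 0.40 (SE 0.0529, limma adjusted p = 0.000385), so that its order of groups was that of *Ptger4*. The cannabinoid receptor *Cnr2* (-0.45, limma adjusted p = 0.000252), *Gpr18* (-0.36, limma adjusted p = 0.00732), and *Cysltr2* (-0.25, limma adjusted p = 0.00627) fell with EpA. *Gpr65* rose with EpA by 0.24 without and with fatostatin (limma adjusted p = 0.00447 and 0.00385). *P2ry10b*, the neighbor of *P2ry10*, rose by 0.23 with fatostatin in EpA-Th9 cells (limma adjusted p = 0.0385), a call lost in 9 of 22 alternatives, with adjusted p up to 0.137 without EpA replicate 3. *Lpar5* (4.89 FPKM), *Lpar2* (1.06), and *Gpr34* (0.538), receptors for lysophosphatidic acid and lysophosphatidylserine, passed no test.

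**Figure D3:**
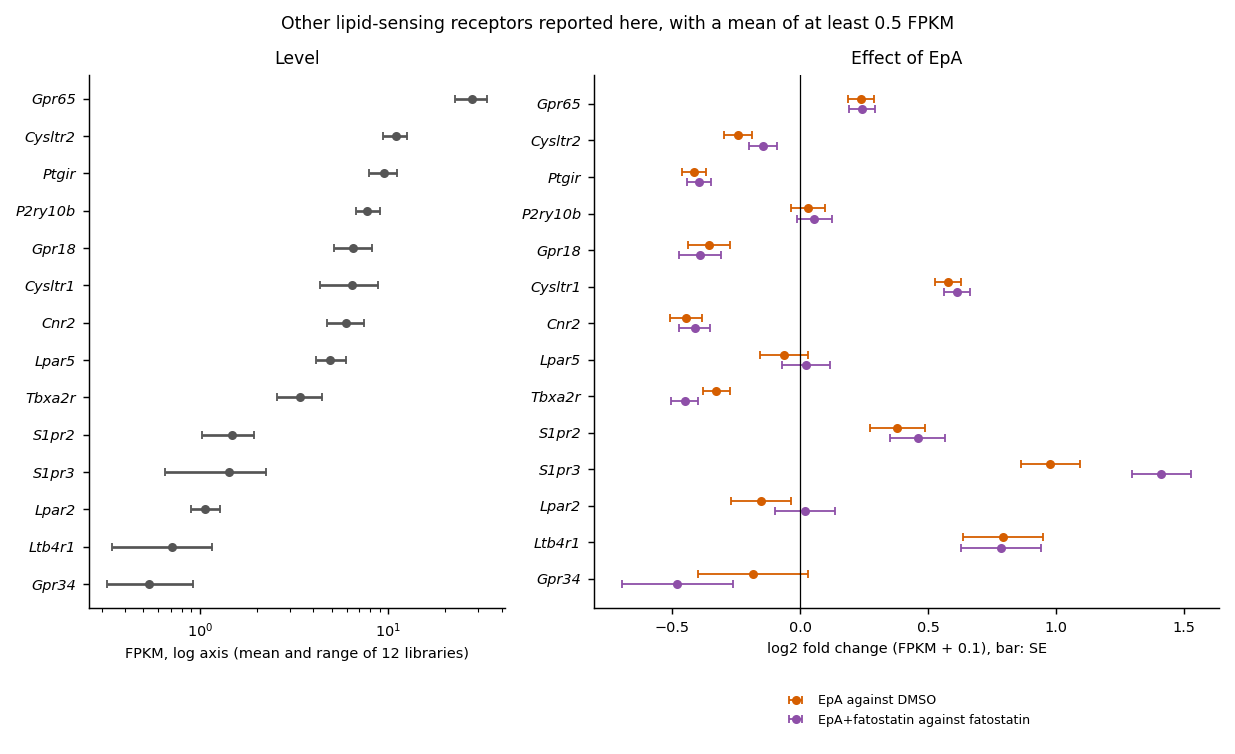
Level (left, FPKM on a log axis, mean and range of the 12 libraries) and log2 fold change of FPKM + 0.1 with SE (right) for other receptors that averaged 0.5 FPKM or more and are reported here, for EpA without and with fatostatin. *S1pr3*, *Ltb4r1*, and *Cysltr1* lay to the right of 0, and *Cnr2*, *Ptgir*, *Gpr18*, and *Tbxa2r* to the left.

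Genes that make, remove, or carry the ligands were listed by pathway. Of 17 tested genes of sphingosine 1-phosphate and lysophospholipid metabolism, EpA raised 1 and lowered 3 (27.4% of all genes changed), and fatostatin raised 1 and lowered 1 (14% of all genes). *Sgpp1*, a sphingosine 1-phosphate phosphatase, rose with fatostatin by 0.35 (SE 0.0247, limma adjusted p = 3.34e-06) and by 0.29 (SE 0.0247, limma adjusted p = 1.34e-05) in EpA-Th9 cells. *Enpp2*, which encodes the lysophosphatidic acid-producing enzyme autotaxin, rose with EpA by 0.55 (SE 0.147, limma adjusted p = 0.0156) and, with fatostatin present, by 0.59 (SE 0.147, limma adjusted p = 0.0107, or 0.0612 when only the groups compared were fitted), at 44 to 141 reads per library. *Lpcat3*, a lysophospholipid acyltransferase, fell in both compounds' comparisons with DMSO (-0.14, limma adjusted p = 0.00672, with EpA and -0.19, limma adjusted p = 0.00289, with fatostatin). Of the 6 enzymes of oxysterol ligands, only *Ch25h* passed the filter, with 3 to 29 reads per library, and it passed no test.

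Of 6 tested prostaglandin genes, EpA raised 2 and lowered 1 (27.4% of all genes changed). *Ptgs1*, a cyclooxygenase, rose by 0.83 (SE 0.142, limma adjusted p = 0.00116) without fatostatin and 0.62 (SE 0.142, limma adjusted p = 0.00686) with it. *Ptges3*, a prostaglandin E synthase, rose by 0.17 (limma adjusted p = 0.000832) and 0.23 (limma adjusted p = 7.81e-05). *Hpgds*, the hematopoietic prostaglandin D synthase, fell by 0.74 on the log2 scale (SE 0.170, limma adjusted p = 0.00706) without fatostatin and by 0.73 (SE 0.170, limma adjusted p = 0.00708) with it. *Ptges* was higher with fatostatin than with DMSO by 1.06 (SE 0.278, limma adjusted p = 0.0258), at 2 to 33 reads per library, a call lost without DMSO replicate 1 (adjusted p = 0.0877) or DMSO replicate 2 (0.0694). The size of this change is uncertain, since it ran from 0.19 to 2.46 over the 16 alternatives in which *Ptges* was tested.

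Of 25 tested G proteins, receptor kinases, arrestins, and RGS proteins, EpA raised 3 and lowered 10 without fatostatin and raised 4 and lowered 11 with it, against 27.4% and 29.5% of all genes changed. *Rgs16*, which shortens signaling by inhibitory G proteins, fell with EpA from 5.00 ± 0.733 to 3.12 ± 0.449 FPKM (SD, n = 3 each; -0.66, SE 0.129, limma adjusted p = 0.00271), rose with fatostatin by 0.62 (SE 0.129, limma adjusted p = 0.00788), and fell by 0.80 on the log2 scale with EpA when fatostatin was present (SE 0.129, limma adjusted p = 0.000742). The receptor kinase *Grk2* fell by 0.18 on the log2 scale in both EpA comparisons (limma adjusted p = 0.000106 and 8.60e-05). *Arrb1*, an arrestin chosen here after its values were seen, had the order of groups of *Gpr55*: EpA raised it by 0.28 (SE 0.0476, limma adjusted p = 0.00107) and fatostatin lowered it by a log2 change of -0.43 (SE 0.0476, limma adjusted p = 0.000104).

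All 6 genes listed as controllers of S1pr1 or markers of lymph node homing were tested. *Klf2*, a transcription factor that activates *S1pr1*, fell from 2.86 ± 0.389 FPKM (SD, n = 3) with DMSO to 1.24 ± 0.188 FPKM (SD, n = 3) with EpA, a log2 change of -1.15 (SE 0.171, limma adjusted p = 0.000481), and by 1.12 on the log2 scale when fatostatin was present (SE 0.171, limma adjusted p = 0.000497). *Ccr7*, a chemokine receptor of lymph node homing, was at 184.0 FPKM with DMSO and 243.7 FPKM with both compounds, and it rose with EpA by 0.17 (limma adjusted p = 5.62e-05) and with fatostatin by 0.13 (limma adjusted p = 0.000977). *Foxo1* fell with fatostatin by 0.18 on the log2 scale (limma adjusted p = 0.000210), and *Klf3* rose by 0.59 (SE 0.117, limma adjusted p = 0.00503) with fatostatin in EpA-Th9 cells.

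The 5 genes whose log2 values were most like those of *Gpr55* over the 12 libraries, among the 10297 genes averaging 1 FPKM or more, were *Il10* (Pearson r = 0.991), *Cpox* (0.989), *Slc7a5* (0.987), *Tnfrsf8* (0.986), and *Aldh3a2* (0.982). *Il10*, the gene for an anti-inflammatory cytokine, had 110.1 ± 0.875 FPKM with DMSO, 136.5 ± 1.95 with EpA, 53.7 ± 1.62 with fatostatin, and 71.2 ± 1.45 with both (SD, n = 3). *Cpox*, a heme synthesis enzyme, went from 47.0 ± 0.472 FPKM with EpA to 16.7 ± 0.690 FPKM with fatostatin. The amino acid transporter *Slc7a5* and the surface receptor gene *Tnfrsf8* had narrower ranges, from 72.1 to 56.5 FPKM and from 105.2 to 69.6 FPKM in the same groups. The 12 points share 4 treatments, and these coefficients describe that pattern.

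**Figure D4:**
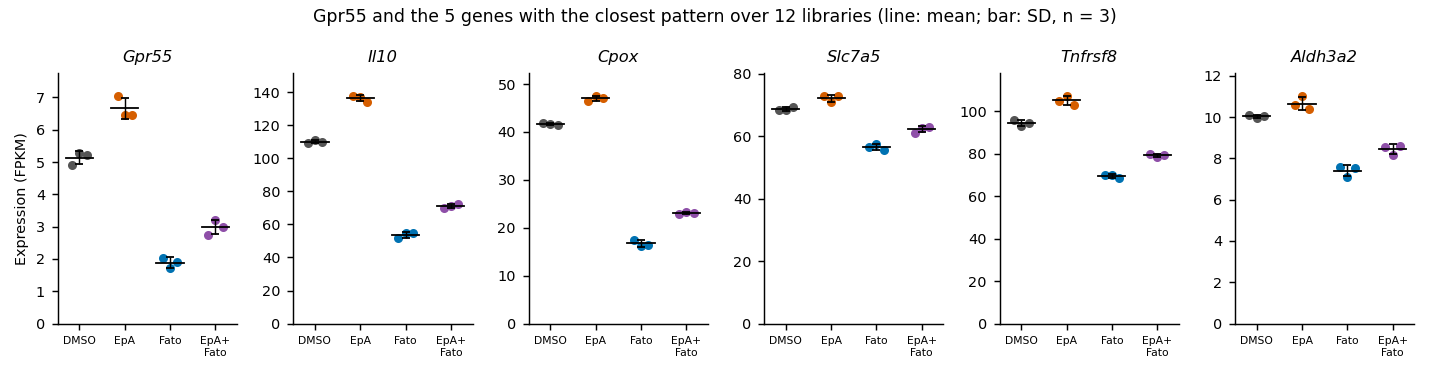
Expression in FPKM (vertical axes from 0) of *Gpr55* and the 5 genes most like it, in the DMSO, EpA, fatostatin (Fato), and EpA+Fato groups, with points for libraries, lines for means, and bars for SD of n = 3. In all 6 panels EpA was highest, followed by DMSO, both compounds, and fatostatin.

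Markers of other cells were low but not all absent. The summed level of 7 B cell markers was 6.03 to 7.97 FPKM with DMSO, 5.29 to 6.28 with EpA, 7.61 to 8.71 with fatostatin, and 6.39 to 7.03 with both, nearly all from *Cd79b* (5.94 FPKM), whereas *Ms4a1* (0.0516), *Pax5* (0.0387), and *Cr2* (0.0248) were near 0. This sum was lower in EpA than in fatostatin libraries, as *Ptger4* and *Gpr174* were. The sum of 9 myeloid markers was 1.49 to 1.72 FPKM with DMSO and 1.43 to 1.92 with EpA. With fatostatin it was 1.77 to 2.55 and with both 2.12 to 3.10, so fatostatin libraries lay higher in either setting. Most of it was *Cd68* (1.21 FPKM with DMSO, 1.89 with both), and *C1qa* and *C1qb* had 0 reads. The sum of 5 NK cell markers was 1.56 to 1.79 FPKM with DMSO and 0.841 to 0.945 with EpA, with *Ncr1* and *Klrb1c* near 0. With fatostatin the NK sum was 1.41 to 1.54 and with both 0.683 to 0.808, so EpA libraries lay lower in either setting, as for *Ptger4* and *Gpr174*. The sum of 5 mast cell and basophil markers was 0.888 to 1.11 FPKM with DMSO, 1.14 to 1.91 with EpA, 1.00 to 1.21 with fatostatin, and 0.686 to 1.44 with both, so that EpA lay above DMSO without overlap, as *Gpr55* did, but overlapped when fatostatin was present. *Mcpt8* (10 to 40 reads per library, named after its values were seen) alone of the 3 tested rose with EpA (0.90, limma adjusted p = 0.0492), and *Tpsab1* had 0 reads. The sums of 6 dendritic cell and 4 erythroid markers stayed between 0.168 and 0.721 FPKM. *Cd8b1* (7.49 FPKM) and *Cd8a* (1.16) were detected in all libraries. Their part in the changes of the receptors was not tested.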

How the data were processed

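RNA-seq of 12 libraries of mouse Th9 cells in 4 groups of 3 was used. The authors trimmed the reads, used HISAT2 to align them to GRCm38, counted reads per gene, and deposited FPKM, that is, counts scaled by gene length and library size. Whether counting used strand is not given in the sources used here. Of 32352 lines, 301 repeated a gene with the same values, which left 32051 genes. With exon lengths from GENCODE M21 (32003 genes), dividing by the value of 1 read gave whole reads (tolerance 0.05 reads) for 98.4% to 98.6% of each library's values. The depth, about 36607308 to 44375796 reads, varied by a factor of 1.21.

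Values were tested as log2(FPKM + 0.1) in R 4.3.3 with limma 3.58.1, in 1 fit of 4 group means with an intensity trend, for the 13733 genes that averaged 0.1 FPKM or more. p-values are two-sided and Benjamini-Hochberg adjusted over all genes tested. The fold threshold of 1.5 is that of the study. Tables were made in Python 3.11.15 with pandas 2.3.3, and the fit was tested on simulated data.

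The receptors, gene lists, and tests were chosen with earlier results of these data known. Named besides the 10 receptors were listed receptors averaging 0.5 FPKM or more, genes of the other lists that changed at least 1.5-fold, up to 3 of the most abundant genes of each list, *Il9*, and the 5 genes most like *Gpr55*. Alternatives changed the pseudocount, the minimum level, the scaling (TPM, median ratio), the groups fitted, the trend, a replicate block, and the data (voom on recovered reads), and left out each library in turn. Some listed genes are counted but not reported by name here.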

Additional observations from a re-analysis of the deposited data

How the results depend on the processing

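The number of receptors changed by EpA against DMSO (4 with *Gpr55*, or 3 to 5 without 1 library) and in the difference between EpA effects (0) stayed within 1.5 times the reported count in all alternatives. With fatostatin present, the 4 receptors other than *Gpr55* that EpA changed passed in all alternatives but 1. The exception was *Gpr132* without EpA+fatostatin replicate 2 (limma adjusted p = 0.0553). For both compounds against EpA, the count went from 5 to 3 when only the groups compared were fitted, and was 4 to 5 without 1 library. At 1.5-fold, *Lpar6* made the count 1 in this comparison, and it was 0 with a pseudocount of 1, a minimum mean of 1 FPKM, or only the groups compared, and 0 to 1 without 1 library. For both compounds against fatostatin, no receptor other than *Gpr55* reached 1.5-fold. The log2 change of *Gpr55*, given as a description, was 0.46 with a pseudocount of 1 and 0.57 to 0.69 without 1 library. A pseudocount of 1 shrinks folds of low genes by construction, and the minimum of 1 FPKM removes *Lpar6*. For the other settings the cause was not tested. The receptors that did not overlap between fatostatin and DMSO numbered 7, or 7 to 9 without 1 library. With a pseudocount of 1 the values for fatostatin against DMSO were -1.09 for *Gpr55* and -0.37 for *Lpar6*.

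Changes of sign were limited to receptors with values near 0. For EpA against DMSO, *Gpr183* was -0.000119 with median-ratio scaling, -0.00182 with voom, and -0.0266 to 0.0480 without 1 library, and *Ptger2* was -0.0919 to 0.0134 without 1 library. For both compounds against fatostatin, *S1pr4* was -0.00865 with median-ratio scaling and -0.0465 to 0.0645 without 1 library, *Ptger2* was 0.00127 with TPM and -0.0601 to 0.0399 without 1 library, and *Lpar6* was -0.228 to 0.154 without 1 library. For the difference between EpA effects without 1 library, *S1pr1* was -0.0591 to 0.0188, *Gpr174* -0.0290 to 0.0110, *Ptger2* -0.0184 to 0.0896, and *Ptger4* -0.0631 to 0.0141.

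Same-numbered replicates did not deviate together (18 correlations of deviations from group means, -0.0881 to 0.113, 1 over 0.1), so the numbers were not taken to pair the libraries. With the replicate number as a block, the counts were 4, 5, 4, and 0 in the order EpA against DMSO, both against EpA, both against fatostatin, and the difference. *Gpr55* was counted in the first of these only. Fitting only the groups compared could not be done for the difference, which needs all 4 groups. *Lpar6* and *Gpr183* rest on under 200 reads per library, and their changes are the least precise of the 10.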

Other observations

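*P2ry10*, *P2ry10b*, and *Gpr174* follow each other on the plus strand of the X chromosome, 43952 and 82216 bases apart. With fatostatin in EpA-Th9 cells their log2 changes were 0.19, 0.23, and 0.19. With EpA against DMSO they were -0.05, 0.03, and -0.26, and only the last passed the test (limma adjusted p = 3.51e-05). The summed level of the 10 receptors was 240.4 to 244.3 FPKM with DMSO, 228.5 to 233.3 with EpA, 254.1 to 260.3 with fatostatin, and 249.4 to 255.5 with both.

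Several families of lipid receptors were listed but barely detected. *Ffar3*, *Hcar1*, *Ptgdr*, and *Ptgfr* had 0 reads in every library, and the prostaglandin D2 receptor *Ptgdr2* and the sphingosine 1-phosphate receptor *S1pr5* had means of 0.0297 and 0.0241 FPKM. The other cell markers that passed the test with EpA against DMSO included *Cd8a* (-1.08, limma adjusted p = 2.85e-05), *Klrk1* (-0.85, limma adjusted p = 6.79e-05), and *Eomes* (-0.90, limma adjusted p = 0.00779), which were lower, and *Lyz2* (1.07, limma adjusted p = 0.00934), which was higher. These were named after their values were seen.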
